A study of Mus musculus with 8 samples.

Results

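The Bcl2 family decides whether a stressed cell lives or dies at its mitochondria, and this account follows 10 of its genes through the epithelium of the mouse thymus. The members were chosen by symbol: the survival genes Mcl1, Bcl2 and Bcl2l1 (which encodes BCL-XL), the effectors Bax and Bak1, and the BH3-only genes Bbc3 (PUMA), Pmaip1 (NOXA), Bcl2l11 (BIM), Bid and Bad. All 10 were found among the 27514 genes listed for all 8 libraries, and all 10 passed the filter on low counts in each of the 3 model fits. BAX and BAK open pores in the outer mitochondrial membrane, survival proteins hold them back, and BH3-only proteins release that brake by binding the survival proteins or by activating the effectors directly. Thymic epithelial cells (TEC) form the scaffold on which T cells develop; cortical TEC (cTEC) drive the early steps, and medullary TEC (mTEC) display self antigens and are known for rapid turnover once they mature.

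The libraries were droplet single-cell RNA-seq of sorted TEC from wild-type C57BL/6 mice. E13.5 TEC were DAPI-, CD45- and EpCAM+ cells of the embryo, sorted without regard to lineage. The cTEC of E15.5, E17.5, newborn (NB, 0 to 2 days old by the study's methods) and adult (4 to 6 weeks) mice were also Ly51+ and did not bind the lectin UEA-1, and adult mTEC were Ly51- and bound it. There was 1 library at each age below the adult, and there were 2 each of adult cTEC and adult mTEC. No source used here says whether the 2 adult libraries came from separate animals, so p-values measure the spread between libraries, which may be technical. Data set 1 held E13.5, E15.5, NB and replicate 1 of both adult groups, and data set 2 held E17.5 and replicate 2 of both. The study's methods give Liberase, DNase and a Percoll gradient for newborn and adult thymus and trypsin for embryonic thymus, so that the dissociation and the step from fetal to later ages cannot be told apart.

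After the limits of the study on cells, and without clusters named as another cell type, 25322 epithelial-like cells of 28334 deposited ones were summed by library. The sums held from 2151147 UMIs (unique molecular identifiers) in adult cTEC replicate 1, with 492 cells, to 89998087 in E17.5 cTEC, with 8350 cells. Levels are given in CPM, the UMIs of a gene scaled to the same total in every library. Pairs of libraries shared 0 to 84 cell barcodes. Each UMI marks the 3′ end of 1 transcript, so levels were not divided by length, and capture can still differ between genes. The cTEC markers Psmb11, Prss16 and 6 others summed to between 11130 and 25250 CPM in the 5 cTEC libraries, 1891 in E13.5 TEC and at most 1668 in adult mTEC. Adult cTEC replicate 1 stood apart in its medullary transcripts: the summed mTEC I markers (Ccl21a, Krt5, Krt14 and others) reached 8366 CPM there against 2415 in replicate 2 and 9135 and 4341 in adult mTEC. In a sum, fewer cells with a transcript and less of it per cell cannot be told apart.

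The sequences just before the starts of 3 members are shown because these genes carry the 3 main results: Mcl1 rose with age, Bcl2 was higher in adult cTEC, and Bax was higher in adult mTEC. Each is the 250 bases before the RefSeq start in GRCm38.p6, read 5′ to 3′ on the strand of the gene. Capitals mark GGGCGG (a GC box) and CACGTG (the E-box bound by MYC and related factors) on either strand, and the 2 motifs did not overlap.
Mcl1, chr3:95658471-95658720, plus strand: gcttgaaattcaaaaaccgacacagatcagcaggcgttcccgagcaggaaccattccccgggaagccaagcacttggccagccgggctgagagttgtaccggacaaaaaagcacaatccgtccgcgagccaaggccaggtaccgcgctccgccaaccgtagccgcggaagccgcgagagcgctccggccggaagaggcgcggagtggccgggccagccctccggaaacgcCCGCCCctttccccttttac
Bcl2, chr1:106714291-106714540, minus strand: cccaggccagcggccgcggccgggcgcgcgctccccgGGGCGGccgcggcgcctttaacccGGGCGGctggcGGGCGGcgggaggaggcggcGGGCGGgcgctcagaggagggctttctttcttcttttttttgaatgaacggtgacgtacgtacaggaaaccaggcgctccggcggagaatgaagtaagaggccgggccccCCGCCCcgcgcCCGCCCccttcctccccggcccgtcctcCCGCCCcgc
Bax, chr7:45466899-45467148, minus strand: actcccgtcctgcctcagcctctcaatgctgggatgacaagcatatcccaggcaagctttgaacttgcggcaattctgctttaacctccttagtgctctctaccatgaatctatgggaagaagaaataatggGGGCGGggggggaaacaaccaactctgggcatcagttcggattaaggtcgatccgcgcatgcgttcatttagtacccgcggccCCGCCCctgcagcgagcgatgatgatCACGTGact

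Bcl2 had 7 GC boxes in its window, Bax had 2 and Mcl1 had 1. Windows were read for 9 of the 10 members, 15 windows in all, and 10 of the 15 held a GC box, which 32.7% of the 32851 windows of all genes held. The E-box was in 2 of the 15, 1 of Bax and 1 of Bbc3, and in 6.02% of all windows. A match describes the letters of these windows and says nothing of binding.

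Along the cortical line, Mcl1 rose with age and was the single member to do so by the test. Mcl1 encodes a short-lived survival protein, and its level was 22.2 CPM in E13.5 TEC, 23.3 in E15.5 cTEC, 37.4 in E17.5, 45.7 in NB, and 86.0 and 93.3 in the 2 adult cTEC libraries. Each age stood above the one before, and the adult mean of 89.7 CPM ± 5.17 (SD, n = 2) was 4.04 times the E13.5 level. The slope of log2 counts on the rank of 5 stages was 0.51 per stage (SE 0.08), with an adjusted p of 0.0188 in edgeR's quasi-likelihood test over 6 libraries and 14285 genes. Of all genes tested, 8.22% were called in either direction and 5.15% rose, so that 1 member of 10 is a share near the background.

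The call for Mcl1 rested on several libraries at once. Its slope stayed between 0.46 and 0.59 whichever library was left out, but the adjusted p was 0.156 without adult cTEC replicate 1, 0.0572 without replicate 2, 0.0864 without E15.5 and 0.0602 without E17.5. It was 0.0207 without E13.5 and 0.0294 without NB, and 0.0556 with a slope of 0.48 in data set 1 alone. In resting cells alone the slope was 0.56, with an adjusted p of 0.0123. The summed level of 16 genes of the dissociation stress list moved with age as well, from 532.9 to 931.7 CPM in the 3 fetal libraries to 10950 in NB and 20900 and 11540 in adult cTEC, and 13 of the 16 rose by the same test. Its part in the Mcl1 result was not tested.

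Bcl2, the founding survival gene of the family, was lowest in the cortical line at E13.5, and its later course differed between the data sets. It measured 24.7 CPM in E13.5 TEC, then 46.9, 86.0 and 66.7 in the E15.5, E17.5 and NB cTEC, and 88.3 and 61.4 in adult cTEC. The climb of 3.48 times from E13.5 to E17.5 was followed by values in no order, with E17.5 and NB inside the span of the 2 adult libraries. Its slope of 0.29 (SE 0.14) had an edgeR adjusted p of 0.226 and did not pass the test. Bcl2l1 encodes the third survival protein and was the lowest of the 3 in every cortical library: 20.4, 16.2, 15.3 and 12.2 CPM from E13.5 to NB, then 16.7 and 16.8 in the adult. The slope for Bcl2l1 was -0.08 (SE 0.08, adjusted p = 0.598 in edgeR).

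The pore-forming effectors held a narrow range in the cortical line. Bax was the most abundant member in all 8 libraries, with 184.7 CPM in E13.5 TEC, 168.1, 158.2 and 169.6 from E15.5 to NB, and 116.7 and 141.1 in adult cTEC. Both adult values were the lowest of the line, yet the slope of -0.12 (SE 0.08) did not pass (edgeR adjusted p = 0.393). Bak1 was at 33.0, 42.7, 41.8 and 46.0 CPM from E13.5 to NB and at 20.5 and 33.4 in adult cTEC, so that adult cTEC replicate 2 lay within the range of the earlier ages and replicate 1 below it. Its slope was -0.11 (SE 0.13, edgeR adjusted p = 0.64).

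Among the BH3-only genes, Pmaip1 was nearly silent in fetal and newborn TEC. Its transcripts numbered 16 UMIs in E13.5 TEC and 3, 4 and 6 in the cTEC of E15.5, E17.5 and NB, which is 1.16, 0.109, 0.0445 and 0.259 CPM. Adult cTEC held 27.9 CPM in replicate 1 and 4.46 in replicate 2, both above every younger library. The counting intervals of the 2 adult libraries, 21.3 to 35.9 and 2.64 to 7.04 CPM, did not overlap (exact Poisson, 95%, counting error only). The slope of 1.38 (SE 0.54) had an edgeR adjusted p of 0.158. It rested on adult cTEC replicate 1: without that library the slope was 0.08 (adjusted p = 0.977). Without E13.5 it was 2.97 (adjusted p = 0.0164).

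In the adult cTEC sort, Pmaip1 and the medullary transcript Ccl21a were both higher in cells without cortical transcripts. In replicate 2, the 426 cells in which Psmb11 or Prss16 was detected held 2 Pmaip1 UMIs (0.577 CPM) and 476.7 CPM of Ccl21a, an mTEC chemokine, while the 109 cells without either held 16 Pmaip1 UMIs (27.8 CPM) and 3261 CPM of Ccl21a. In replicate 1, the 325 cells with those cTEC transcripts held 24.3 CPM of Pmaip1 and 4688 of Ccl21a, and the other 167 cells held 38.2 and 7544. Cells without the cTEC transcripts were shallower, with medians of 2963 against 4636 UMIs in replicate 1 and 5302 against 7684 in replicate 2. The part of mTEC or of their free RNA in the Pmaip1 level of the cTEC sort was not tested.

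The other BH3-only genes showed no slope past the threshold. Bcl2l11, which encodes a BH3-only protein that binds all survival members, measured 27.3 CPM in E13.5 TEC, 21.1, 7.90 and 10.9 from E15.5 to NB, and 21.9 and 6.44 in adult cTEC, so that the 2 adult libraries fell near opposite ends of the range. Bid, which links death receptors to mitochondria, was at 11.96 CPM in E13.5 TEC and between 3.25 and 6.19 in the 5 cTEC libraries. Bad, whose protein is held in check by growth factor signals, peaked at 119.6 CPM at E15.5 and had its lowest cortical value of 63.7 in adult cTEC replicate 1. Bbc3, a target gene of p53, stayed between 7.44 and 20.2 CPM in all 6 libraries. Their slopes were -0.15 for Bcl2l11, -0.27 for Bid, -0.13 for Bad and -0.01 for Bbc3, with edgeR adjusted p-values of 0.411, 0.276, 0.471 and 0.974.

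**Figure D1:**
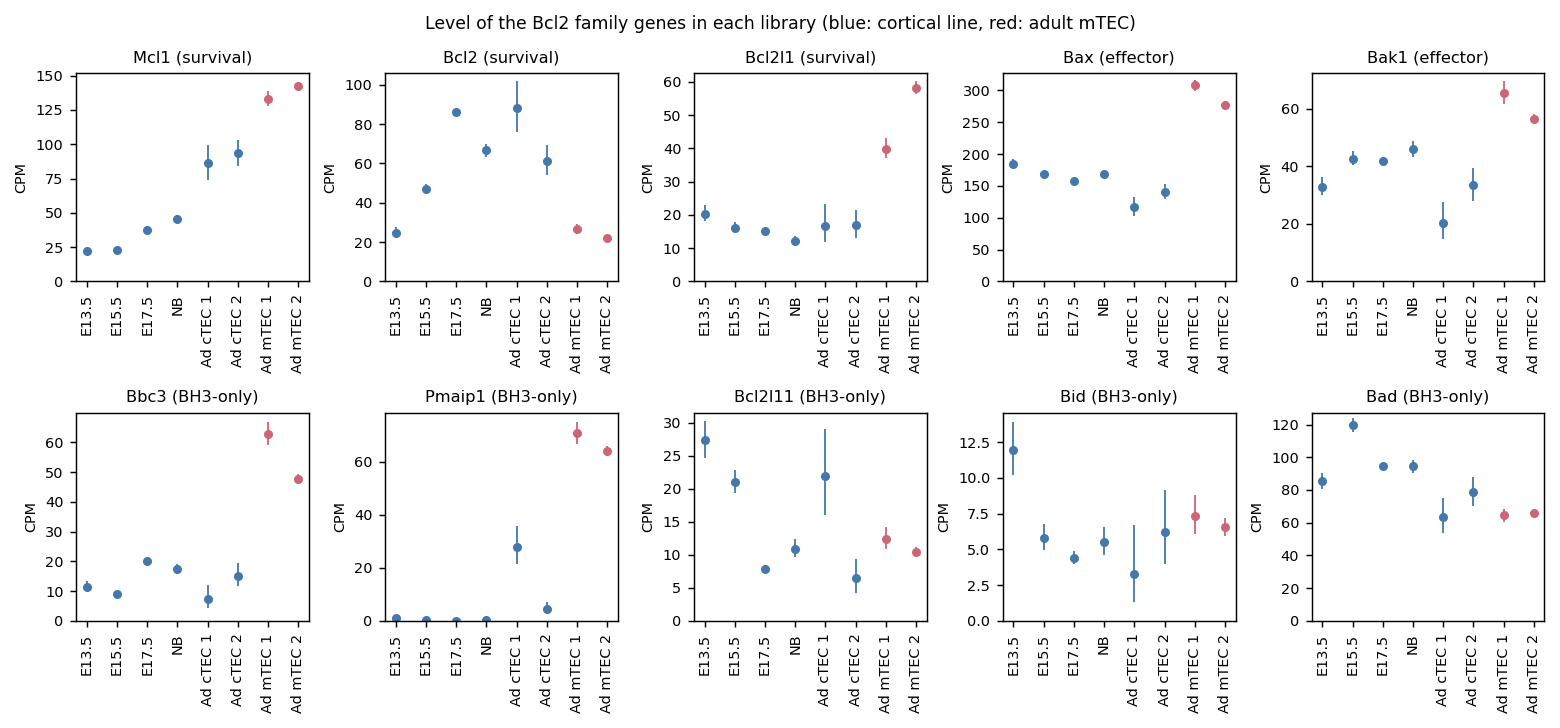
Level in CPM (y axis, linear from 0) of each of the 10 genes in the 8 libraries (x axis, Ad for adult), blue for the cortical line and red for adult mTEC. Bars are exact 95% Poisson intervals and cover counting error only. Mcl1 climbs from 22.2 CPM at E13.5 to 93.3 in adult cTEC and 143 in adult mTEC, Bcl2 falls to 22.1 in adult mTEC, and Pmaip1 lies at or below 1.16 CPM before adulthood.

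Adult mTEC held more transcript of 4 of the 7 death genes (Bax, Bak1, Bbc3 and Pmaip1) than adult cTEC, and the survival genes Bcl2 and Bcl2l1 differed in opposite directions. By edgeR's quasi-likelihood test over the 4 adult libraries, with data set as a term, 6 of the 10 members were called: Pmaip1, Bbc3, Bcl2l1, Bax and Bak1 were lower in cTEC and Bcl2 was higher. Among the 15626 genes tested, 31.7% were called, 20.8% lower in cTEC and 10.9% higher. The median log2 difference (cTEC minus mTEC) of the 10 members was -0.97, and that of all genes was -0.14. Of the 16 dissociation stress genes, 8 were higher in cTEC and 1 was lower, with sums of 20900 and 11540 CPM in cTEC against 9853 and 5592 in mTEC, and their part in the differences was not tested.

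Bcl2 and Bcl2l1 changed places between the lineages. Bcl2 measured 88.3 and 61.4 CPM in adult cTEC and 26.8 and 22.1 in adult mTEC, so the groups were well apart. The log2 difference was 1.53 (SE 0.38, edgeR adjusted p = 0.0017), a ratio of mean levels of 3.07. Bcl2l1 ran the other way, with 16.7 and 16.8 CPM in cTEC and 39.9 and 58.3 in mTEC, a log2 difference of -1.60 (SE 0.41, adjusted p = 0.00221). Of the 3 survival members, Mcl1 was the most abundant in mTEC, at 133 and 143 CPM against 86.0 and 93.3 in cTEC. Its groups did not overlap, but the log2 difference of -0.69 (SE 0.37) did not pass (adjusted p = 0.162).

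Both effectors were higher in mTEC. Bax stood at 307.9 and 276.9 CPM in mTEC against 116.7 and 141.1 in cTEC, with a log2 difference of -1.26 (SE 0.39, adjusted p = 0.0111). Bak1 stood at 65.6 and 56.6 CPM in mTEC against 20.5 and 33.4, with a log2 difference of -1.27 (SE 0.40, adjusted p = 0.0129).

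The BH3-only genes Bbc3 and Pmaip1, both known targets of p53, had the largest fitted differences among the 10 members, though not in each data set: in data set 1 the log2 ratio of Pmaip1, -1.34, was smaller in size than those of Bcl2, Bak1 and Bax. Bbc3 measured 62.9 and 47.7 CPM in mTEC and 7.44 and 15.1 in cTEC, a log2 difference of -2.36 (SE 0.45, adjusted p = 5.39e-05). Pmaip1 measured 70.7 and 64.1 CPM in mTEC and 27.9 and 4.46 in cTEC, a log2 difference of -2.57 (SE 0.47, adjusted p = 3.8e-05). The other BH3-only genes did not pass: Bid had 7.34 and 6.55 CPM in mTEC against 3.25 and 6.19, Bad had 64.5 and 65.8 against 63.7 and 78.5, and Bcl2l11 had 12.4 and 10.4 against 21.9 and 6.44. Counting these 3, the adult groups did not overlap for 8 of the 10 members, and for 67.7% of the genes tested.

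Within each data set the sign of every called difference was the same. The log2 ratio of CPM (cTEC to mTEC) was 1.72 and 1.48 for Bcl2, -1.26 and -1.79 for Bcl2l1, -1.40 and -0.97 for Bax, -1.68 and -0.76 for Bak1, -3.08 and -1.66 for Bbc3, and -1.34 and -3.85 for Pmaip1. Pmaip1 was therefore the member whose size depended most on the data set, and the uncalled Bcl2l11 (0.81 and -0.69) and Bad (-0.02 and 0.25) changed sign.

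Leaving out single libraries, in fits without the data set term, kept every direction of the called members but not every call. Each such fit left 1 library in a group, which was assumed to vary like the 2 of the other group. Bbc3 was called in all 4 such fits, with adjusted p-values of up to 0.0428. Without adult mTEC replicate 2 it was the single member called, and Pmaip1 then had an adjusted p of 0.142, Bcl2 of 0.174, Bcl2l1 of 0.162, Bax of 0.194 and Bak1 of 0.203. Without mTEC replicate 1, Bcl2 (0.0732), Bax (0.153) and Bak1 (0.152) were lost. Without cTEC replicate 1, Bcl2l1 (0.079), Bax (0.0562) and Bak1 (0.0858) were lost, and without cTEC replicate 2, Bcl2l1 (0.0684) was lost. With only the adult cTEC in which Psmb11 or Prss16 was detected, all 6 calls stood and the difference in Pmaip1 was -3.42 (adjusted p = 0.0131). That transcript does not set cTEC apart cell by cell, since 25.05% and 29.5% of the cells of the mTEC libraries held it too, against 66.1% and 79.6% in adult cTEC. Myeloid markers (Lyz2, Csf1r and others) summed to 436.7 and 556.9 CPM in mTEC against 247.3 and 32.2 in cTEC, thymocyte markers to 49.8 and 53.8 against 44.2 and 118.1, and mesenchymal markers to 103 and 70.5 against 510.0 and 318.3. Their part in the differences was not tested.

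**Figure D2:**
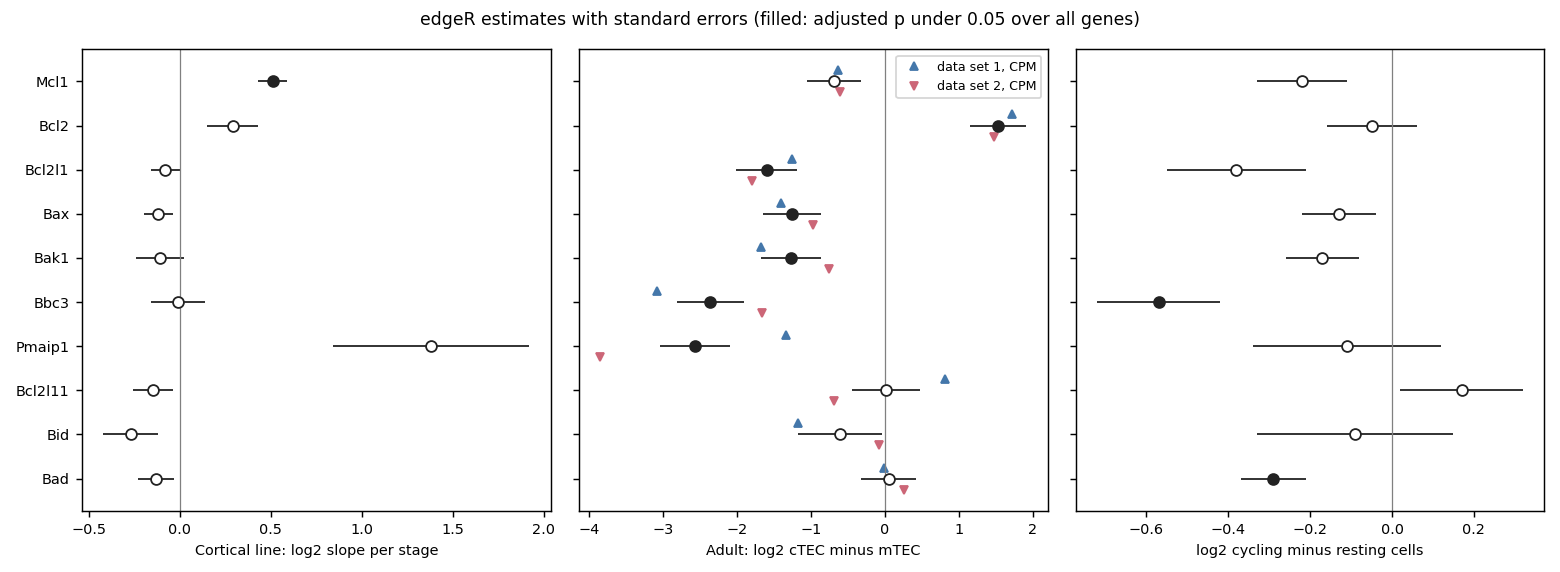
Estimates on the log2 scale (x axes) for each member (rows) in the 3 comparisons, with standard errors as bars and filled circles where the adjusted p was under 0.05. Triangles give the log2 ratio of CPM in each data set. Mcl1 is the one filled circle for age (0.51 per stage), and 6 members are filled for lineage, from -2.57 for Pmaip1 to 1.53 for Bcl2.

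The balance of the chosen members was described by the ratio of the summed CPM of the 3 survival genes to that of the 7 death genes, with no test. Other genes of the family, on either side, were left out of both sums. The ratio was 0.19 in E13.5 TEC, then 0.236, 0.424 and 0.362 from E15.5 to NB, and 0.731 and 0.602 in adult cTEC. On the log2 scale it went from -2.40 at E13.5 to a mean of -0.59 ± 0.20 (SD, n = 2) in adult cTEC, a difference of 1.81. The survival sum went from 67.3 CPM at E13.5 to 191.1 and 171.5 in adult cTEC while the death sum went from 354.9 to 261.3 and 285.1.

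Adult mTEC had a ratio near that of E17.5 and NB with more transcript on both sides. The ratio was 0.338 and 0.422 there, on either side of NB, and its log2 mean of -1.40 ± 0.23 (SD, n = 2) was 0.81 below that of adult cTEC. The survival sum of mTEC, 199.8 and 222.9 CPM, was above that of cTEC, and the death sum, 591.4 and 528.0 CPM, stood against 261.3 and 285.1 in cTEC. Without Bcl2 in the ratio the difference between the adult lineages shrank to 0.22, and without Mcl1 it widened to 1.34. Leaving out any member kept the sign of both differences.

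The survival side was made of different genes at each step. In E13.5 TEC, Bcl2 gave 36.8% of the survival sum, Mcl1 33.0% and Bcl2l1 30.3%. Bcl2 led at E15.5, E17.5 and NB with 54.3%, 62.0% and 53.5%. Mcl1 and Bcl2 shared the sum in adult cTEC (45.0% and 46.2% in replicate 1, 54.4% and 35.8% in replicate 2). Mcl1 led in adult mTEC with 66.6% and 64.0%. On the death side Bax gave between 44.7% and 52.5% in every library. Bad gave 24.1% to 32.7% in the cortical line and 10.9% and 12.5% in mTEC, where Bbc3 and Pmaip1 gave 10.6% and 11.95% in replicate 1 and 9.03% and 12.1% in replicate 2.

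**Figure D3:**
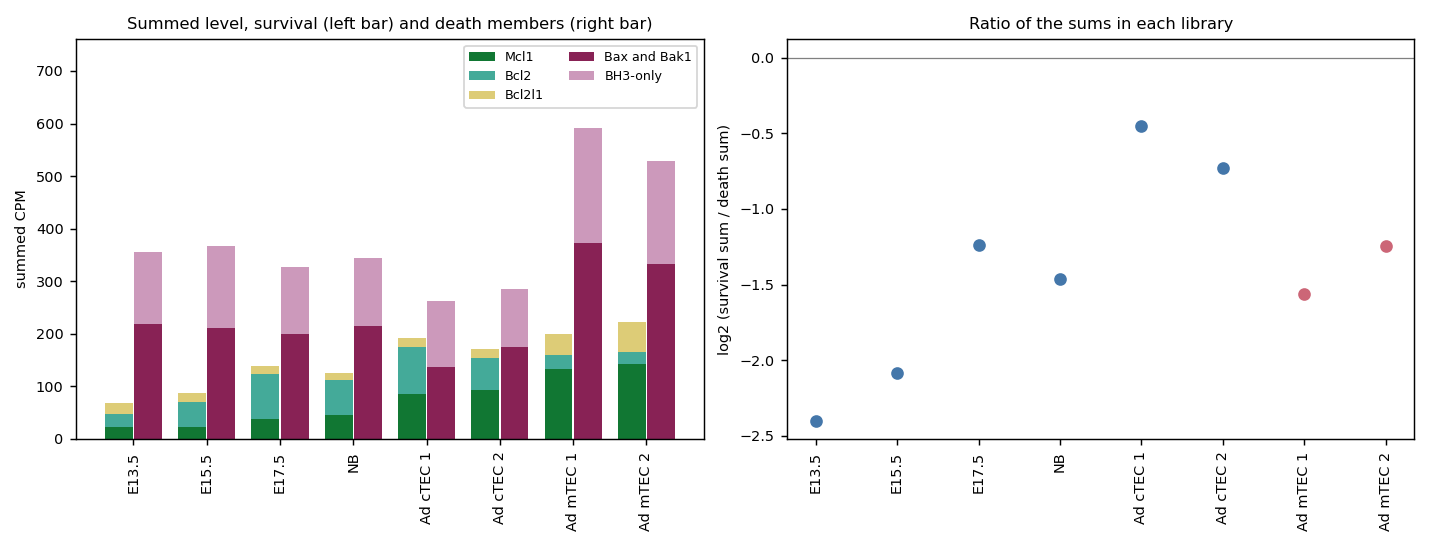
Left, summed CPM (y axis) of the survival genes (left bar of each pair, by gene) and the death genes (right bar, effectors and BH3-only) in each library. Right, log2 ratio of the sums (blue, cortical line; red, adult mTEC): -2.40 at E13.5, -0.45 and -0.73 in adult cTEC, and -1.57 and -1.24 in adult mTEC.

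Within the medulla several members differed in level between subsets. Bcl2l11 was at 14.4, 14.2 and 15.3 CPM in mTEC I-like, II-like and III-like cells of replicate 1. Over all clusters, unnamed ones included, it ranged from 6.85 to 17.9 CPM in replicate 1 and from 7.42 to 19.3 in replicate 2. Each mTEC library was clustered by itself, and clusters were called mTEC I-like (Ccl21a, Krt5 and Krt14), mTEC II-like (Aire, Fezf2), mTEC III-like (Krt10, Ivl and Spink5) or mTEC IV-like (tuft cells, Avil and Trpm5) from marker lists. Clusters with 622 of the 1585 cells of replicate 1 and 4420 of the 5615 cells of replicate 2 stayed unnamed. Cells are not replicates, so the levels are a description.

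Bcl2 was high in mTEC I-like cells, where Bax, Bcl2l1 and Bbc3 were low. In replicate 1, mTEC I-like cells had 45.3 CPM of Bcl2, 16.1 of Bcl2l1, 159.3 of Bax, 23.9 of Bbc3 and 31.1 of Pmaip1. The mTEC II-like cluster, which carries the Aire transcript at 942 CPM, had 19.9 of Bcl2, 71.4 of Bcl2l1, 439 of Bax, 91.3 of Bbc3 and 90.8 of Pmaip1. In replicate 2, mTEC I-like cells had 49.98 CPM of Bcl2, 25.4 of Bcl2l1, 163.5 of Bax, 27.2 of Bbc3 and 26.7 of Pmaip1. Of these, Bcl2l1 was further from its value in replicate 1 than the others were. No cluster of replicate 2 was named mTEC II-like. The survival to death ratio was 0.555 and 0.615 in mTEC I-like cells of the 2 libraries and 0.29 in the mTEC II-like cluster.

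In mTEC III-like cells Mcl1 and Pmaip1, whose proteins bind each other, were both high at the resolution used. Mcl1 reached 217.6 CPM in replicate 1 and 213.2 in replicate 2, the highest of any cluster in either library. Pmaip1 was at 185.2 and 127.5 CPM in the same cells, but Ccl9, Hamp and Prap1 were among the leading genes of the replicate 1 cluster and of unnamed clusters of replicate 2, so that the clusters of the 2 libraries may not hold the same cells. Bcl2 was at 11.7 and 11.3. At the coarser resolution of 0.4, the cluster of replicate 1 that took the mTEC III-like name was larger (479 cells), with 149 CPM of Mcl1, 114 of Pmaip1 and 17.9 of Bcl2, and no cluster was named mTEC II-like. In replicate 2 the values moved little (212 CPM of Mcl1 and 127.4 of Pmaip1). Tuft-like mTEC IV cells, named at resolution 0.8 in replicate 2 and not in replicate 1 (151 cells), had 147.2 CPM of Mcl1, 28.4 of Bcl2 and 21.5 of Bbc3, the lowest Bbc3 of the 12 clusters of that library.

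Most of the 12 clusters of replicate 2, with 4420 of its 5615 cells, stayed unnamed. That 8 of the 10 members (all but Mcl1 and Bcl2) were highest in one of these is therefore not read as a trait of the members. Pmaip1 reached 324.5 CPM in 94 cells led by Ccl6, Ccl20 and Gp2, and Bcl2l1 reached 127.8 CPM in 699 cells led by Klk1b26 and Ccl22. Over the clusters of a library, the log2 ratio of the highest to the lowest level (CPM + 10, mean of 2 libraries ± SD) was 2.91 ± 0.39 for Pmaip1, 1.88 ± 0.11 for Bcl2l1, 1.84 ± 0.24 for Bcl2, 1.47 ± 0.47 for Bbc3, 1.33 ± 0.20 for Bax and 0.81 ± 0.15 for Mcl1. Mcl1 was thus the most even of these 6 genes across the medulla, and Pmaip1 the least.

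**Figure D4:**
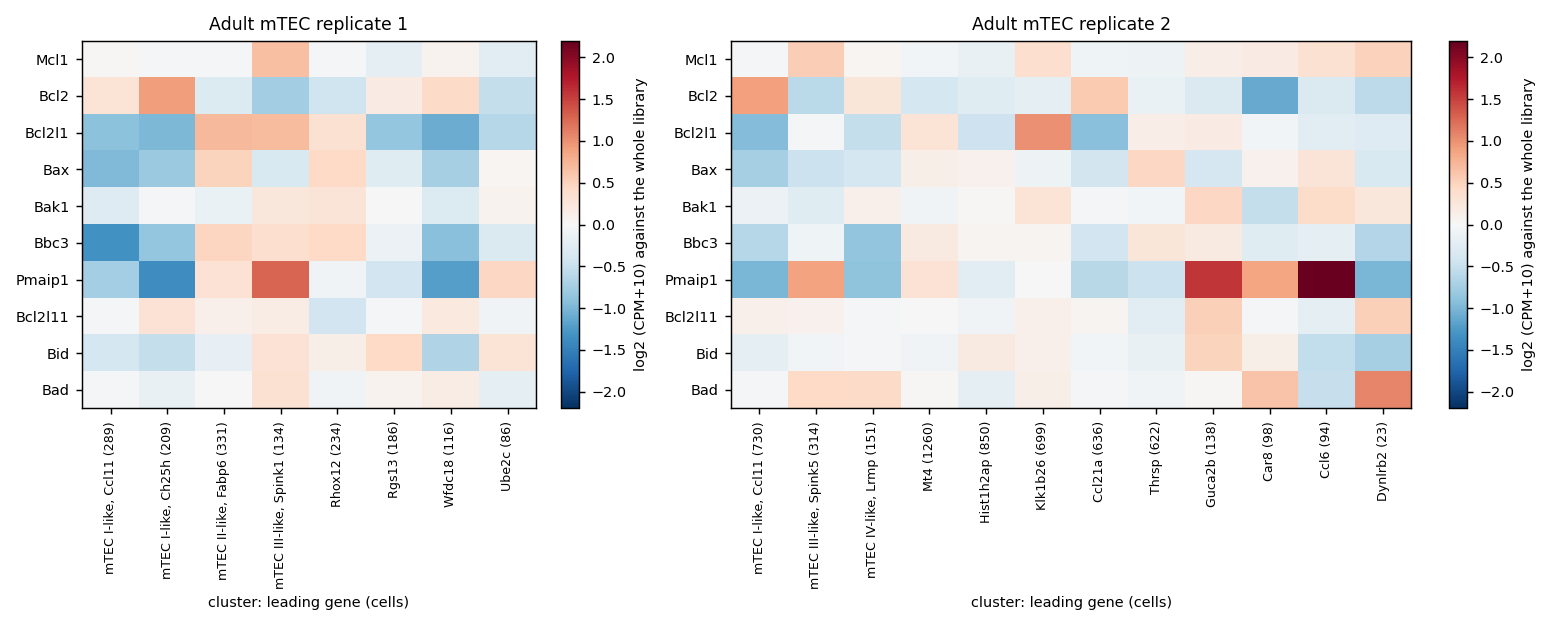
Members (rows) in the clusters of each adult mTEC library (columns, named by their leading gene with the number of cells), coloured by the log2 ratio of CPM + 10 to that of the whole library. Bcl2 is raised and Bax, Bcl2l1 and Bbc3 are lowered in mTEC I-like clusters, and Pmaip1 is highest in mTEC III-like cells of replicate 1 (185.2 CPM) and the Ccl6 cluster of replicate 2 (324.5 CPM).

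Cycling cells were compared with resting cells within each library because cells scored as cycling (a proliferation score over 0) made up 79.0% of E13.5 TEC but 1.42% (7 cells) and 7.66% (41 cells) of adult cTEC. By edgeR's quasi-likelihood test on 16 sums of 8 libraries, with the library as a block, 2 of the 10 members were called, both lower in cycling cells, while 31.8% of 16925 genes were called and 22.1% were lower. Bbc3 was lower in cycling cells in 7 of 8 libraries, for example 47.2 against 66.7 CPM in adult mTEC replicate 1, 37.3 against 50.3 in replicate 2 and 12.1 against 21.8 in E17.5 cTEC, with a log2 difference of -0.57 (SE 0.15, adjusted p = 0.0125). Bad was also lower in 7 of 8 (101.6 against 130.2 CPM in E15.5 cTEC), but its log2 difference of -0.29 (SE 0.08, adjusted p = 0.0126) lay close to the median of -0.22 over all genes.

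Neither call was independent of single libraries. Bbc3 had an adjusted p of 0.0786 without E13.5, 0.0909 without NB and 0.0566 without both adult cTEC libraries, where cycling cells held 0 and 1 Bbc3 UMIs. Its difference in these fits was -0.51, -0.48 and -0.44. Bad had 0.139 without adult cTEC replicate 1, 0.25 without E13.5, 0.305 without E15.5, 0.276 without NB and 0.23 without both adult cTEC libraries, with differences between -0.25 and -0.21. The remaining members were between -0.38 (Bcl2l1, adjusted p = 0.105) and 0.17 (Bcl2l11, adjusted p = 0.39). Whether the cycling difference was itself unequal in adult mTEC and the cortical line was tested too, a comparison chosen after seeing the data, and 3 of the 10 members passed (Bcl2, Bcl2l1 and Bid), against 18.8% of all genes. Without both adult cTEC libraries, Bcl2 (adjusted p = 0.5) and Bcl2l1 (0.129) did not pass, and Bid, Bak1 and Bad did. In that fit 4160 of 16950 genes passed. The survival to death ratio in resting cells alone gave differences of 2.02 between adult cTEC and E13.5 and 0.76 between adult cTEC and adult mTEC, on the log2 scale.

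The rest of the apoptosis machinery was read from 5 lists in the same fits. Of 14 other Bcl2 family genes tested between the adult lineages, 7 were lower in cTEC and the other 7 did not pass, with a median of -1.46, against 20.8% lower and a median of -0.14 over all genes. These included the survival genes Bcl2a1a, Bcl2a1b and Bcl2a1d, near-identical copies that may share reads, and the death gene Bik. Bcl2a1b stood at 89.1 and 292 CPM in mTEC against 32.5 and 13.9 in cTEC (log2 difference -2.99, SE 0.50, edgeR adjusted p = 8.41e-06), and Bik at 39.5 and 41.2 against 7.90 and 3.96 (-2.92, SE 0.47, adjusted p = 3.65e-06). Bcl2a1 genes are also known from myeloid cells and B cells, whose summed markers were higher in the mTEC libraries (24.5 and 36.6 CPM of B cell markers against 1.86 and 2.23), and that part was not tested. In cycling cells 10 of the 14 were lower and 2 higher, with a median of -0.71 against -0.22 over all genes, of which 31.8% were called. With age 0 of 13 passed in edgeR, where 5 had an unadjusted p under 0.05, and DESeq2 called 4.

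Death receptor genes differed most at Fas, the receptor for Fas ligand. Fas measured 2.68, 2.66, 7.15 and 7.65 CPM from E13.5 to NB, 27.0 and 15.8 in adult cTEC, and 160.9 and 129.3 in adult mTEC. Its age slope was 0.78 (SE 0.13, adjusted p = 0.0235) and its lineage difference was -2.87 (SE 0.41, adjusted p = 3.61e-07). Ripk1, a kinase downstream of death receptors, rose with age (0.77 per stage, SE 0.10, adjusted p = 0.0116) and was higher in adult cTEC (1.16, SE 0.39, adjusted p = 0.0183). Of 8 death receptor genes tested, 2 rose with age, against 5.15% of all genes, and 2 were higher and 1 lower in cTEC, against 10.9% and 20.8%. Without adult cTEC replicate 1 the slopes of Fas and Ripk1 were 0.56 and 0.80 and neither passed. That fit called far fewer genes of any kind. The library left out held more of the medullary transcripts, and mTEC held more Fas but less Ripk1 than adult cTEC. The stress list rose with age as well, and the part of either was not tested.

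Regulators of the family were called mostly in cycling cells. Among 14 genes of the p53 and BH3 regulator list, 2 rose and 1 fell with age, against 8.22% of all genes called (Ddit3 0.55, Sesn2 0.37 and E2f1 -0.71 per stage), and in the adult Trp63 (2.39), Foxo3 (2.25) and Foxo1 (1.09) were higher and E2f1 (-2.14) lower in cTEC, against 31.7% of all genes called. In cycling cells 10 of the 14 were lower and 2 higher, with a median of -0.48 against 22.1% lower and a median of -0.22 over all genes. The dissociation stress list moved the same way, with 10 of 16 lower and a median of -0.47, and its part in this and in the Bbc3 and Bad calls was not tested. The lower regulators included Mdm2 (-0.53, SE 0.10, adjusted p = 0.00137) and Ccng1 (-0.55, SE 0.10, adjusted p = 0.00115), both known targets of p53. Of 5 genes for the turnover of MCL1 protein, 1 passed between the adult lineages, against 31.7% of all genes: Fbxw7, part of a ubiquitin ligase, was higher in adult cTEC (1.16, SE 0.39, adjusted p = 0.0195). Among 17 genes of the apoptosome, caspase and IAP list, Birc3 rose with age (0.62, SE 0.09, adjusted p = 0.0178), Birc5 fell by 0.95 per stage, and Htra2 and Birc5 were lower in adult cTEC, which is 2 of 17 called in each comparison against 8.22% and 31.7% of all genes. Birc5 belongs to the gene list of the proliferation score. Without adult cTEC replicate 1 no age call of the regulators or of this list remained, in a fit that called far fewer genes of any kind. The slopes kept their signs, at 0.48 for Ddit3, 0.43 for Sesn2, -0.85 for E2f1, 0.63 for Birc3 and -0.67 for Birc5.

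The genes whose levels were most like those of each survival gene were ranked by Pearson correlation of log2(CPM + 10) over the 8 libraries, among 2982 or 2983 genes with a mean of at least 50 CPM, as a description. For Mcl1 these were Smpdl3a (0.99), Fabp4 (0.985) and AW112010 (0.985). For Bcl2 they were Copz2 and Ddr1 (0.968) and the cTEC chemokine receptor Ackr4 (0.967). For Bcl2l1 they were Lad1 (0.984), Saa3 (0.976) and S100g (0.971). The 8 points share data sets and differ in depth, and 4 of them are adult.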

How the data were processed

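Libraries were 10x Chromium 3′ v2 single-cell RNA-seq. The authors deposited UMI counts per gene and cell, unnormalized. The submitters' processing notes name bcl2fastq 2.17, Cell Ranger 2.0.1, STAR 2.5.1b and mm10, and the matrix headers of data set 2 name software version 3.0.1. Cells with over 5% mitochondrial UMIs or over 5000 genes were left out, as in the study, and no doublet caller was run. Cells were clustered by Leiden (resolution 0.8, 20 components, leidenalg 0.10.2) and clusters resembling thymocytes, parathyroid or thyroid (428 cells) were left out. Counts were summed per library and tested with edgeR 4.0.16 (R 4.3.3), quasi-likelihood with TMM and Benjamini-Hochberg adjustment, with data set as a term for age and lineage and library for cycling. Cycling meant a score above 0 over 96 S and G2M genes. Ratios within data sets and the balance took log2 of CPM without a pseudocount, and cluster ratios and correlations used log2(CPM + 10). DESeq2 1.42.0 and other alternatives are in the closing section. Fits were tested on simulated data. The members, lists and tests were chosen with earlier results of these data known. All members were named, with at most the 6 genes of smallest p per list and comparison. Promoters came from RefSeq (GRCm38.p6). Labels name thymus as the tissue, and their growth text names bone marrow.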

Additional observations from a re-analysis of the deposited data

Results flagged for a closer look

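The difference between cycling and resting cells was itself compared between adult mTEC (2 libraries) and the cortical line (6 libraries) in edgeR, a comparison chosen after seeing the data, in which 18.8% of 16925 genes passed. It differed for 3 members. Bcl2l1 was lower in cycling mTEC (26.0 and 30.3 CPM, against 43.3 and 65.4 in resting mTEC) and the interaction was -0.86 (SE 0.188, adjusted p = 0.00463). The interaction was -0.51 for Bcl2 (SE 0.158, adjusted p = 0.0334) and 1.04 for Bid (SE 0.321, adjusted p = 0.031). The adult cTEC libraries entered with 7 and 41 cycling cells. Without both, Bid kept its call (1.37, adjusted p = 0.00407), Bcl2l1 (-0.44, adjusted p = 0.129) and Bcl2 (-0.20, adjusted p = 0.5) lost theirs, and Bak1 (0.69, adjusted p = 0.00642) and Bad (0.48, adjusted p = 0.0414) passed, while 4160 of 16950 genes passed in that fit.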

How the results depend on the processing

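Each age below the adult had 1 library, the adult groups had 2, and adult cTEC had the fewest UMIs, so the depth of Pmaip1 and Bid there limits their values. The age trend called 1174 genes, against 534 in data set 1 alone and 2938 with DESeq2, and 24 to 1175 with single libraries left out. Of the members it called 1, against 0 in data set 1 alone and 0 to 2 with single libraries left out. The lineage test called 4954 genes, against 2560 with DESeq2 and 1020 to 2874 with single libraries left out, and 6 members, against 1 to 5. Without the data set term, Bak1 (adjusted p = 0.0599) and Pmaip1 (0.0785) lost their calls, as did Bak1 with DESeq2 (0.0583). The cycling test called 5380 genes and 2 members, against 3650 to 4959 genes and 0 to 2 members with single libraries left out, and 0 members without both adult cTEC libraries. With DESeq2 Bax passed (-0.19, adjusted p = 0.022) and with no filter Bcl2l1 did (-0.45, adjusted p = 0.0326). The balance difference between adult cTEC and E13.5, 1.81, was 1.39 without Mcl1, 2.19 without Bcl2l1, 1.13 in cycling cells only (chosen after seeing the data) and 1.08 as a mean of log2(CPM + 10). Between adult cTEC and mTEC, 0.81, it was 1.34 without Mcl1, 0.22 without Bcl2, 1.05 without Bcl2l1, 1.07 without Bad and 0.50 in cycling cells only. Across mTEC clusters the log2 ratio of highest to lowest was 0.53 for Mcl1 (from 0.81) and 1.57 for Bcl2 (from 1.84) at resolution 0.4, and 2.0 for Bcl2l1 (from 1.88) at resolution 1.2. Moves within the spread of the 2 libraries included Bbc3, 1.80 ± 0.88 (SD) at 1.2 (from 1.47 ± 0.47), and Pmaip1, 2.57 ± 0.94 at 0.4 (from 2.91 ± 0.39). Where a cause is not plain from fewer libraries or members, the cause was not tested. Of the values of single members, counted without the fits that left out a library, 248 kept their sign and side of the threshold, 8 lost the threshold, 2 gained it and 15 changed sign. No member's called value changed sign. Those that did had passed no threshold. With age, Bbc3 (-0.01) was 0.04 in data set 1 alone and 0.08 without the data set term, and Bcl2l11 (-0.15) was 0.01 with all clusters kept. Between lineages, Bcl2l11 (0.01) was -0.25 with the cells holding cTEC transcripts, -0.14 in all deposited cells and in resting cells, -0.02 with DESeq2, -0.0 with its size factors and -0.04 with no filter, where Bad (0.05) was -0.0. In cycling cells, with all clusters kept, Pmaip1 (-0.11) was 0.01 and Bid (-0.09) 0.02, and without both adult cTEC libraries Bcl2 (-0.05) was 0.03, Pmaip1 0.2 and Bid 0.03. With single libraries left out, these ranges spanned 0: with age -0.25 to 0.06 for Bak1 and -0.16 to 0.13 for Bbc3, between lineages -0.81 to 0.75 for Bcl2l11 and -0.22 to 0.27 for Bad, and in cycling cells -0.10 to 0.02 for Bcl2, -0.41 to 0.17 for Pmaip1 and -0.31 to 0.14 for Bid. The slope of Bcl2l11 then stayed between -0.35 and -0.08. The labels carry no replicate numbers, but replicates 1 and 2 of both adult groups were captured in data sets 1 and 2, so the data set term pairs them, and without it 4 members were called in place of 6.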
